A study of Rattus norvegicus with 16 samples.

Results

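Mediator is the large protein complex that carries signals from DNA-bound transcription factors to RNA polymerase II, and 26 genes of its subunits were measured here in the hearts of newborn rats. The members are every gene whose symbol is Med with a number, an l after it in some, together with Cdk8, Cdk19 and Ccnc, where the array's annotation gives a probe set that symbol alone. A probe set is the group of probes whose signals are summarised as 1 value. Each of the 26 genes had 1 such probe set, so the step in which the row of a gene is chosen by its mean signal over all arrays decided nothing. They are 26 of 14324 genes named in the data. The complex was proposed for description with earlier results of these data known, among them a large rise of Med22.

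The hearts came from pups aged 2 days of the Hypertrophic Heart Rat (HHR), which develops a polygenic enlargement of the heart and is labelled hypertrophic, and of the Normal Heart Rat (NHR), labelled normal and used as its control. Each strain gave 4 females and 4 males, so that the 4 groups (HHR females and males, NHR females and males) held 4 arrays each, with 1 animal on each Affymetrix Rat Gene ST array and no treatment or engineered allele. The labels' design text describes ventricles freed of atria, whereas a protocol speaks of whole hearts. Values are on the log2 scale, where a difference of 1 is a doubling of signal, and a difference is HHR minus NHR throughout.

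Mediator is built from modules. The head and middle modules touch the polymerase, the tail module receives many of the activators, and Med14 runs through the complex as its scaffold. A separable kinase module made of Cdk8 or Cdk19, cyclin C and the Med12 and Med13 proteins docks on the core and keeps the polymerase away. In mice, loss of Med1 or Med12 from heart muscle cells and a mutation of Med30 each lead to cardiomyopathy, and Med13 in heart muscle is a target of the microRNA miR-208a and alters whole-body energy use. Of 33 Mediator genes listed by module, 7 (Med7, Med9, Med12, Med13l, Med18, Med25 and Med26) had no probe set named for them alone and were not analysed here.

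The 3 members that passed as higher in HHR under all 28 alternatives of the fit (other scalings, filters and models, and arrays left out) were Med22, Med6 and Med12l, so the start regions of these genes are shown. Each is 300 bases of the RefSeq sequence (GRCr8), 250 before the gene's annotated start and 50 after it, written 5′ to 3′ on the gene's own strand. Med22 lies on the minus strand at chr3:30636862-30637161, Med6 on the minus strand at chr6:107015081-107015380 and Med12l on the plus strand at chr2:145403068-145403367. Capitals mark matches on either strand to 7 short motifs: the GC box GGGCGG, the CCAAT box CCAAT, the TATA box TATAAA, the ETS site CCGGAAG, the E-box CACGTG, the NRF1 core TGCGCA and the YY1 site AAGATGG.
Med22: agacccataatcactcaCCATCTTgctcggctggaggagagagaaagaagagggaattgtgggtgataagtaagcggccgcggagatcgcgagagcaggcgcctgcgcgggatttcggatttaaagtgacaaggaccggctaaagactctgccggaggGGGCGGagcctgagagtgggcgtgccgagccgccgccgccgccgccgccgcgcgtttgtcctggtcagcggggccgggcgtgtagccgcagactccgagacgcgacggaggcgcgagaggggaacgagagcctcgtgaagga
Med6: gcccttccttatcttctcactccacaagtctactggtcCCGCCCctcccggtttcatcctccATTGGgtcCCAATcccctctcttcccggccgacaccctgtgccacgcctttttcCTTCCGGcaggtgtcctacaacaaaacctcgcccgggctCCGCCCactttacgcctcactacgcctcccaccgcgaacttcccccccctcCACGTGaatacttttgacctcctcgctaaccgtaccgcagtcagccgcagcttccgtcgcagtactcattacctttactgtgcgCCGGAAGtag
Med12l: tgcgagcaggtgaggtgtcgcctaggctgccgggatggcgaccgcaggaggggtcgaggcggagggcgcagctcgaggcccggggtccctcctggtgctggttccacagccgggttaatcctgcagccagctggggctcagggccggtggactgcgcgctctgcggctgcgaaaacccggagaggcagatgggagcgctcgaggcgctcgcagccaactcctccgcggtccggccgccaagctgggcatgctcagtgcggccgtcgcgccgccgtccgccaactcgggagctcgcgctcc
The Med22 region held 1 GC box and 1 YY1 match and no TATA box. The Med6 region held 2 GC boxes, 2 CCAAT boxes, 2 ETS matches and 1 E-box, and the Med12l region held none of the 7. Over all 33469 regions of this length in the table, 33.1% held a GC box, 37.5% a CCAAT box, 14.2% a TATA box, 8.75% an ETS match, 6.42% an E-box, 7.24% an NRF1 core and 7.01% a YY1 match. Start regions were listed for 22 of the 26 members, Med12l with 2. Among those 23 regions 16 held a GC box, 11 a CCAAT box, 6 an ETS match and 4 an NRF1 core. An E-box was held by 3, a YY1 match by 3 and a TATA box by 1. Whether these shares differ from those of all regions was not tested. No motif was shared by the 3 regions shown.

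Arrays were alike in overall signal, with medians of 7.19 to 7.28 and correlations of 0.99 or higher between any pair. A principal component analysis of deviations from group means put 26.7% of that variance on its first axis, along which the NHR arrays were spread to both ends. NHR female 3, female 4 and male 4 scored 14.4, 15.1 and 22.6 (the 3 high-scoring NHR arrays), NHR female 1, female 2, male 1 and male 2 scored -16.9, -12.6, -11.1 and -13.2 (the 4 low-scoring NHR arrays), and NHR male 3 scored 1.74. HHR arrays scored -3.72 to 7.48. Results are therefore also given for many genes without the 3 high-scoring arrays, and for some members without the 4 low-scoring ones. Single genes outside Mediator and lists of such genes are not given without those 4. Of 6 heart muscle markers all were measured, at values between 10.72 and 14.27, and 2 were lower in HHR and 0 higher. Of 24 markers of other cells and neighbouring tissues (atrial, endothelial, fibroblast, epicardial, mural, leukocyte, erythroid, and liver, lung or skeletal muscle), 22 were measured, 6 were higher and 6 lower. The summed signal of each of these 8 lists overlapped between the strains in 7 lists. The exception was the endothelial list, with 2 of 3 markers measured and both lower, at sums of 3999 to 4637 in HHR arrays and 4644 to 5252 in NHR arrays on the linear scale. On the same test 11.8% of all named genes were higher and 11.2% lower. The part of these markers in the Mediator results was not tested. In heart tissue, fewer cells of a type and less RNA per cell cannot be told apart.

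The main comparison asked which Mediator genes differ between hearts of the strain with inherited hypertrophy and those of its control strain. It was tested with limma, fitting a mean per group to all 27342 probe sets, with p-values adjusted by Benjamini-Hochberg over all of them and a threshold of 0.05. Of the 26 members, 6 were higher in HHR, 2 were lower and 18 did not pass. That is 23.1% higher and 7.69% lower, whereas among all 14324 named genes 11.8% were higher, 11.2% lower and 23.1% called in either direction. The median difference over the members was 0.05, against -0.02 over all named genes, and the median size without regard to sign was 0.12, against 0.09. Most of the complex therefore differed by small amounts, and 1 member by a large one.

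**Figure D1:**
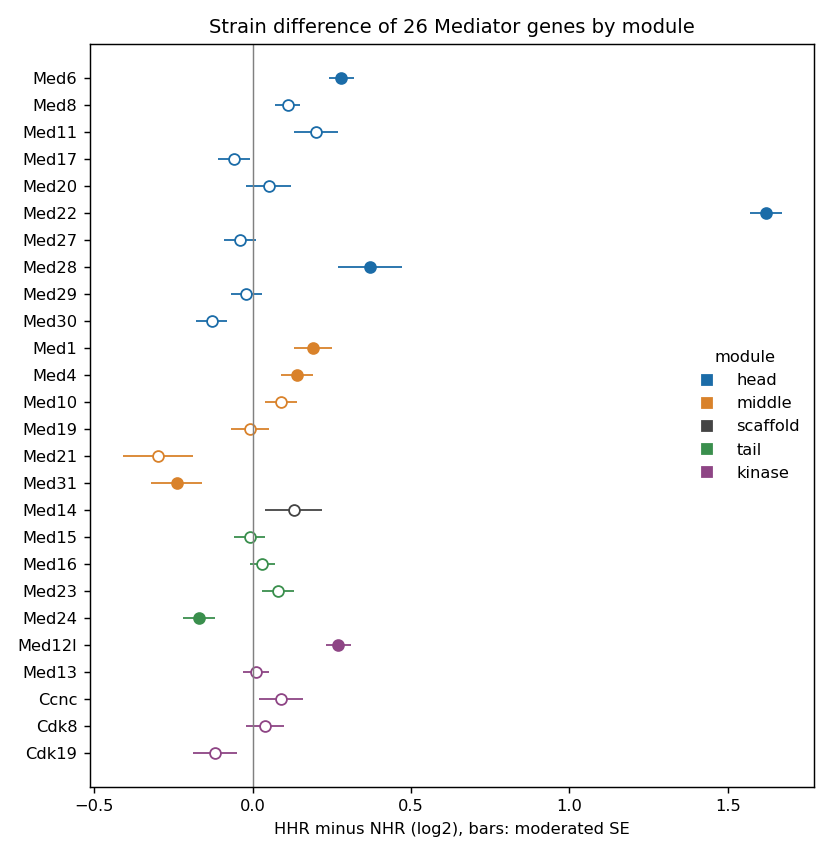
Difference in log2 value between HHR and NHR hearts (horizontal axis) for each of 26 Mediator genes, coloured by module, with the moderated standard error as bars and filled points for genes past the threshold. Med22 lies at 1.62, and the other 25 genes lie between -0.30 and 0.37.

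In the head module, 3 of 10 measured members were higher in HHR, 0 were lower and 7 did not pass, with a median difference of 0.08. Med22, a small head subunit that pairs with Med11 in a helical bundle, stood far above the rest. It read 9.26, 9.15, 9.14 and 9.35 in HHR females and 9.17, 9.20, 9.04 and 9.19 in HHR males, against 7.56, 7.64, 7.64 and 7.46 in NHR females and 7.51, 7.70, 7.52 and 7.49 in NHR males. All 8 HHR arrays lay above all 8 NHR arrays, and within each strain the arrays stayed close, with means of 9.19 ± 0.09 in HHR and 7.57 ± 0.09 in NHR (SD, n = 8 each). The signal was 3.08-fold higher in HHR (difference 1.62, SE 0.05, limma adjusted p = 5.6e-13), which ranks 4 among all named genes by size of rise, and it was 1.60 without the 3 high-scoring NHR arrays. A difference of at least 1.5-fold past the test was seen in 0.88% of named genes (0.6% higher, 0.279% lower), and among the members in Med22 alone.

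Med11, the partner of Med22 in that bundle, ranged over 9.27 to 9.74 (median 9.55) in HHR and 9.15 to 9.56 (median 9.40) in NHR. The strains overlapped, and the difference of 0.20 (SE 0.07, 95% interval 0.05 to 0.35) lay just outside the threshold at an adjusted p of 0.051 in the limma test. It passed in 11 of 28 alternatives (adjusted p of 0.0246 to 0.108). Med22 and Med11, which bind each other as proteins, thus gave differences of 1.62 and 0.20.

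Med6, which sits where head and middle modules meet, was the next most distinct head gene. It ranged over 9.21 to 9.40 (median 9.29) in HHR and 8.89 to 9.24 (median 8.98) in NHR. The ranges met only through NHR male 2 at 9.24, and 6 of 8 HHR arrays exceeded the highest NHR value. The difference was 0.28 (SE 0.04, limma adjusted p = 3.0e-04), and 0.26 without the 3 high-scoring NHR arrays (adjusted p = 0.00357).

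Med28, a subunit of animals without a yeast counterpart, gave 10.00 to 10.32 (median 10.22) in HHR and 9.44 to 10.25 (median 9.80) in NHR. The NHR arrays were widely spread, lowest in female 3 at 9.44 and female 4 at 9.53 and highest in male 2 at 10.25 and female 1 at 10.20. The difference of 0.37 (SE 0.10, limma adjusted p = 0.0179) passed with all arrays. Without the 3 high-scoring NHR arrays it was 0.22 (adjusted p = 0.162), and without the 4 low-scoring ones 0.59 (adjusted p = 4.8e-05), the ends of the range over 28 alternatives.

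The other head genes did not pass. Med8 came close, at 8.59 to 8.77 (median 8.71) in HHR and 8.50 to 8.69 (median 8.56) in NHR, a difference of 0.11 (SE 0.04, limma adjusted p = 0.0537). It passed in 8 of 28 alternatives (adjusted p of 0.0226 to 0.138). Med30, the subunit whose mutation harms the mouse heart, ranged over 8.30 to 8.56 (median 8.45) in HHR and 8.44 to 8.76 (median 8.55) in NHR. Its difference of -0.13 had a 95% interval of -0.25 to -0.02 and an adjusted p of 0.09 (0.0331 to 0.211 over 28 alternatives, 1 of which passed), with 4 HHR arrays below the lowest NHR array and the other 4 among the NHR values. Med17, the central support of the head, Med20, part of its movable jaw, Med27 and Med29 differed by -0.06 to 0.05, and their ranges overlapped between the strains. Med20 differed by 0.16 without the 3 high-scoring NHR arrays (limma adjusted p = 0.119). Its sign turned without the 4 low-scoring ones, at -0.03 (adjusted p = 0.78).

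Placement of Med27 to Med30 differs between descriptions of the complex. With those 4 counted in the tail, the head held 6 measured genes with 2 higher and 0 lower, and the tail held 8 with 1 higher and 1 lower.

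**Figure D2:**
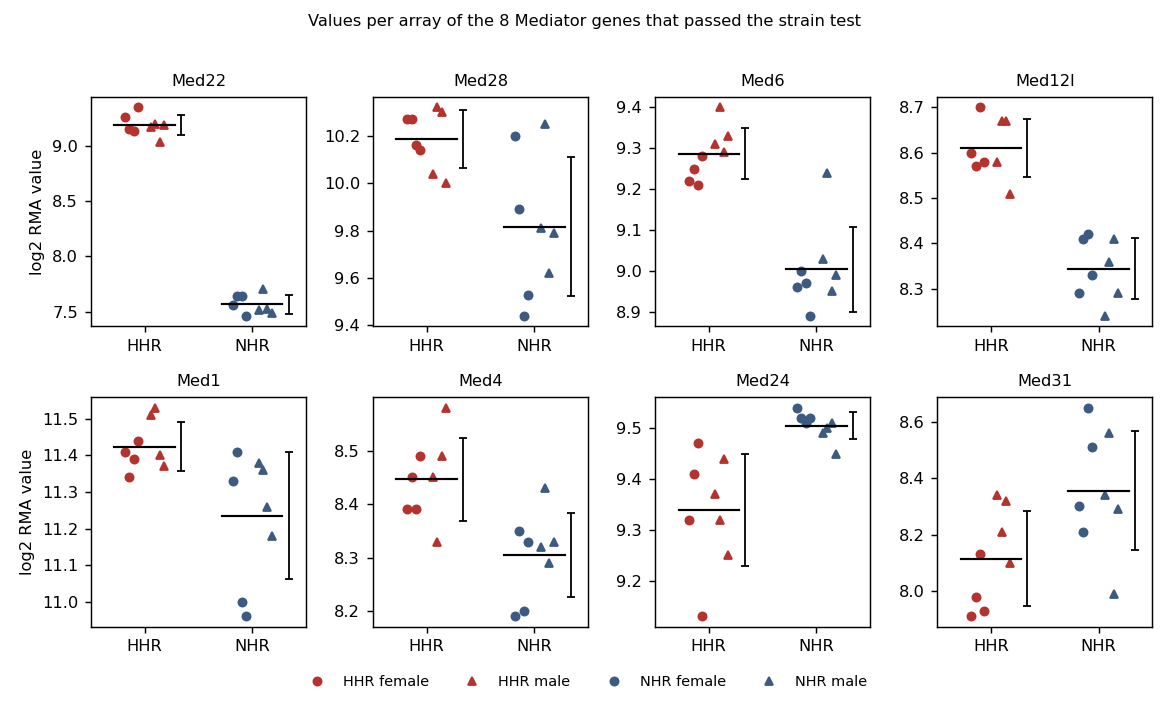
Log2 value on each array (vertical axes, scaled per gene) for the 8 Mediator genes that passed the strain test, HHR left of NHR, circles for females and triangles for males, with the strain mean as a line and the SD of 8 arrays as a bar. The strains are fully separated in Med22 and Med12l, and 1 NHR array reaches the HHR range in Med6.

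The middle module had 2 members higher, 1 lower and 3 that did not pass, of 6 measured, with a median difference of 0.04. Med1, the subunit through which nuclear hormone receptors recruit the complex, ranged over 11.34 to 11.53 (median 11.41) in HHR and 10.96 to 11.41 (median 11.29) in NHR. The lowest values were those of NHR female 4 at 10.96 and NHR female 3 at 11.00, while 3 NHR arrays fell within the HHR range. The difference was 0.19 (SE 0.06, limma adjusted p = 0.0423). It missed the threshold in 15 of 28 alternatives. Without the 3 high-scoring NHR arrays it was 0.07 (adjusted p = 0.343) and without the 4 low-scoring ones 0.32 (adjusted p = 2.8e-04), the ends of the range.

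Med4, a structural subunit of the middle module, gave 8.33 to 8.58 (median 8.45) in HHR and 8.19 to 8.43 (median 8.32) in NHR. The difference of 0.14 (SE 0.05, limma adjusted p = 0.0333) was the same without the 3 high-scoring NHR arrays but did not pass there (adjusted p = 0.0971). It missed the threshold in 9 of 28 alternatives, with adjusted p of 0.0147 to 0.0971.

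Med31, a subunit on the polymerase-facing side, was the middle module's lower gene. It ranged over 7.91 to 8.34 (median 8.12) in HHR and 7.99 to 8.65 (median 8.32) in NHR, with 3 HHR arrays, all females, below the lowest NHR array. The difference was -0.24 (SE 0.08, limma adjusted p = 0.0349), and without the 3 high-scoring NHR arrays it was -0.16 (adjusted p = 0.217). It missed the threshold in 14 of 28 alternatives, among them quantile normalization, median centring, array weights and a model without sex, with adjusted p of 0.00898 to 0.217.

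Med21, which forms the hinge of the middle module, had a larger difference that did not pass. It ranged over 8.56 to 9.12 (median 8.85) in HHR and 8.67 to 9.68 (median 9.14) in NHR, a difference of -0.30 (SE 0.11, limma adjusted p = 0.0704). The 2 highest values were those of NHR female 3 at 9.68 and NHR female 4 at 9.49, and without the 3 high-scoring NHR arrays the difference was -0.12 (adjusted p = 0.491). Without the 4 low-scoring ones it was -0.51 and passed (adjusted p = 7.2e-04), and these are the ends of the range over 28 alternatives. Med10 differed by 0.09 and Med19 by -0.01, neither past the test, with 95% intervals of -0.01 to 0.20 and -0.12 to 0.11.

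Med14, the scaffold, ranged over 7.59 to 8.26 (median 7.88) in HHR and 7.43 to 8.11 (median 7.78) in NHR. Both strains were widely spread and overlapped, and the difference of 0.13 (SE 0.09, 95% interval -0.06 to 0.32) did not pass (limma adjusted p = 0.344).

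In the tail module 0 of 4 measured members were higher, 1 was lower and 3 did not pass, with a median difference of 0.01. Med24, a large subunit bound to Med16 and Med23, was the lower one. It ranged over 9.13 to 9.47 (median 9.34) in HHR and 9.45 to 9.54 (median 9.51) in NHR. The NHR arrays were almost alike (SD 0.02, against 0.11 in HHR), and 7 of 8 HHR arrays lay below the lowest of them. The difference was -0.17 (SE 0.05, limma adjusted p = 0.018). It was -0.18 without the 3 high-scoring NHR arrays, where the adjusted p was 0.0507, and -0.16 without the 4 low-scoring ones (adjusted p = 0.0747). These were the 2 of 28 alternatives in which it missed the threshold, and the lowest adjusted p was 0.00709. Med15, a docking subunit for sterol and Smad signalling factors, Med16, and Med23, a target of growth factor signals through Elk1, differed by -0.01, 0.03 and 0.08 and did not pass.

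In the kinase module 1 of 5 measured members was higher, 0 were lower and 4 did not pass, with a median difference of 0.04. The higher one was Med12l, the paralogue of Med12 that links the kinase to the module. It ranged over 8.51 to 8.70 (median 8.59) in HHR and 8.24 to 8.42 (median 8.34) in NHR, without overlap. The difference was 0.27 (SE 0.04, limma adjusted p = 3.8e-04), and it was 0.27 again without the 3 high-scoring NHR arrays. Members with all 8 HHR arrays above every NHR array were 2 of 26, Med22 and Med12l, against 2.32% of all named genes. None of the members had all 8 HHR arrays below every NHR array, against 2.72% of all named genes.

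The catalytic subunits of the kinase module did not pass. Cdk8, the kinase itself, ranged over 10.28 to 10.43 (median 10.32) in HHR, inside the NHR range of 10.07 to 10.59 (median 10.27), a difference of 0.04 (95% interval -0.09 to 0.17, limma adjusted p = 0.701). Its paralogue Cdk19 gave 9.62 to 10.09 (median 9.86) in HHR and 9.81 to 10.20 (median 9.97) in NHR, a difference of -0.12 (95% interval -0.26 to 0.02, adjusted p = 0.218). The estimates of the 2 paralogues had opposite signs, and both intervals include 0.

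Cyclin C (Ccnc), the activating partner of both kinases, ranged over 8.58 to 8.88 (median 8.67) in HHR and 8.23 to 8.84 (median 8.63) in NHR, a difference of 0.09 (95% interval -0.06 to 0.24, limma adjusted p = 0.404). Med13, which tethers the kinase to the core, ranged over 10.69 to 10.95 (median 10.84) in HHR and 10.75 to 10.94 (median 10.82) in NHR. The NHR arrays all lay within the HHR range, and the difference of 0.01 had a 95% interval of -0.08 to 0.10 (adjusted p = 0.897). The sign of this difference turned to -0.02 after quantile normalization and after cyclic loess. Without the 3 high-scoring NHR arrays the differences of Cdk8 and Ccnc were 0.10 and 0.19 (limma adjusted p = 0.0866 and 0.0774). Without the 4 low-scoring ones they turned to -0.01 and -0.02.

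Values near the threshold account for much of the count. Med1, Med31 and Med4 lay just inside it with adjusted p of 0.0423, 0.0349 and 0.0333, and Med11, Med8 and Med21 just outside with 0.051, 0.0537 and 0.0704. Without NHR female 3, NHR female 4 and NHR male 4, 3 members were higher (Med22, Med6 and Med12l) and 0 lower in the limma test, against 7.15% higher and 8.48% lower (15.6% in either direction) of all named genes. Without the 4 low-scoring NHR arrays 8 were higher (Med22, Med6, Med12l, Med28, Med1, Med4, Med8 and Med23) and 2 lower (Med31 and Med21), against 16.9% and 14.3% (31.2% in either direction) of all named genes. Of the 8 called members, 7 had a difference nearer 0 without the 3 high-scoring NHR arrays, and of all 26 members 19 did. These counts are not given here for all named genes, so they are not shown to be particular to Mediator. The 8 members were also called with those 3 arrays in the fit. Spread was larger in NHR than in HHR in 21 of 26 members, a count not given here for all named genes.

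**Figure D3:**
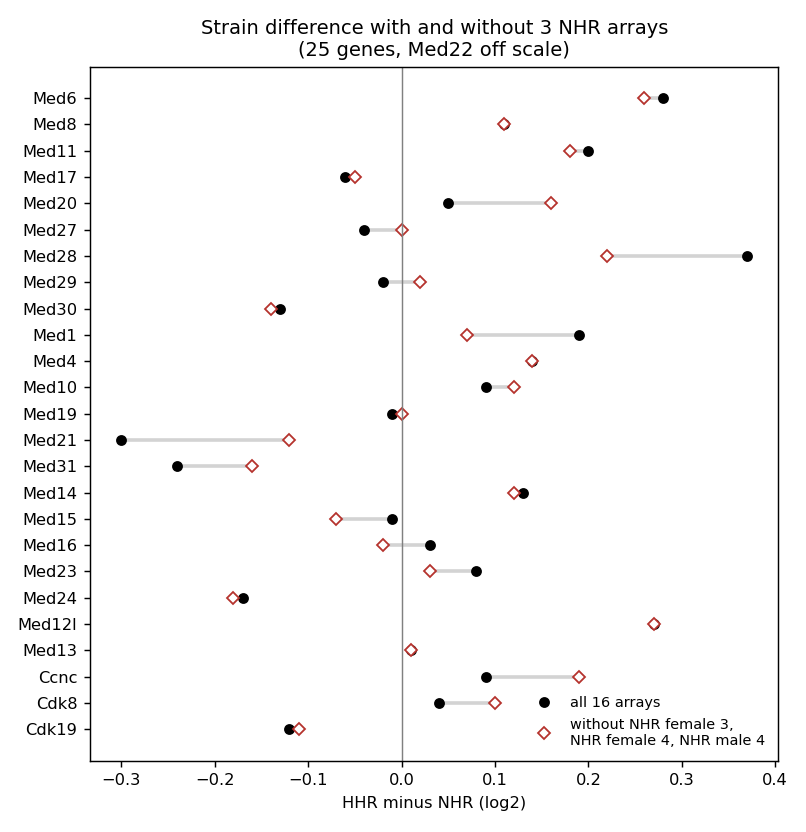
Difference in log2 value between HHR and NHR hearts (horizontal axis) for 25 Mediator genes, with all 16 arrays (black circles) and without NHR female 3, NHR female 4 and NHR male 4 (open diamonds), Med22 being off the scale at 1.62 and 1.60. Med28, Med1, Med21 and Med31 moved toward 0, whereas Med6, Med12l, Med4 and Med24 kept nearly the same difference.

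The same comparison was made within each sex. In females 5 members passed the limma test (Med22, Med6, Med12l and Med8 higher, Med31 lower), against 13.6% of all named genes (7.06% higher, 6.54% lower). In males 3 passed (Med22, Med12l and Med6, all higher), against 4.46% of all named genes (2.37% higher, 2.09% lower). Med22 differed by 1.65 (SE 0.07) in females and 1.60 (SE 0.07) in males, Med6 by 0.28 and 0.28, and Med12l by 0.25 and 0.29. The size of the difference was larger in females in 21 of 26 members, and the sign was shared by both sexes in 20. The same counts over all named genes are not given here, so neither is shown to be particular to Mediator.

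Differences in 1 sex were tested directly as a strain by sex interaction. None of the 26 members passed (lowest limma adjusted p 0.969), and 0% of all named genes did. At an unadjusted p under 0.05 there was 1 member, Med31, at -0.43 (SE 0.11) in females and -0.05 (SE 0.11) in males, with an interaction of 0.38 (SE 0.16, unadjusted p = 0.0264). Med31 read 7.91, 7.98, 8.13 and 7.93 in HHR females and 8.34, 8.21, 8.32 and 8.10 in HHR males, against 8.30, 8.21, 8.65 and 8.51 in NHR females and 8.34, 8.56, 7.99 and 8.29 in NHR males. Med14, next in size, differed by 0.30 in females and -0.05 in males, and its interaction of -0.35 (SE 0.18, unadjusted p = 0.0706) did not pass either.

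Between males and females averaged over the strains, 0 members passed (lowest limma adjusted p 0.777), as against 0.014% of all named genes, and 1 did at an unadjusted p under 0.05. Male minus female differences ran from -0.12 to 0.12. Med14, which is X-linked, differed by 0.03 between the sexes.

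**Figure D4:**
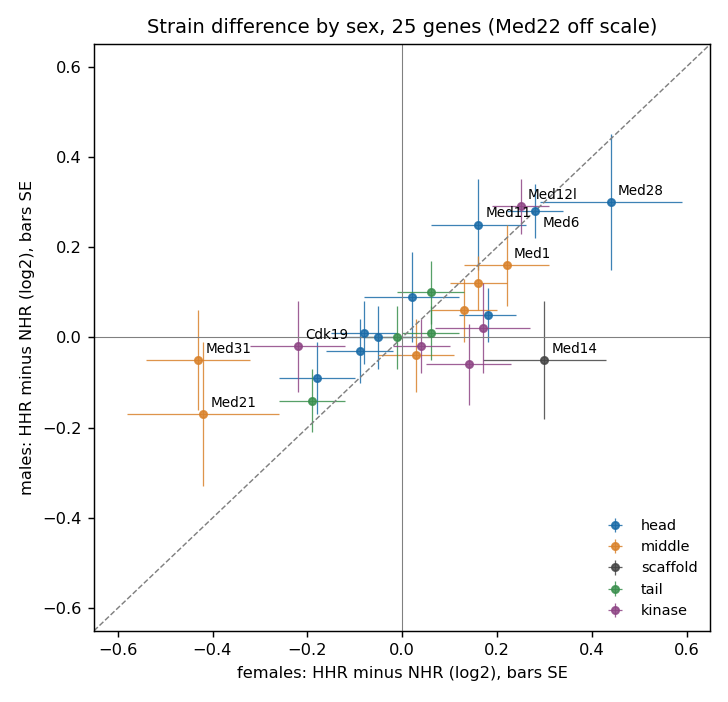
Difference in log2 value between HHR and NHR hearts in females (horizontal axis) and in males (vertical axis) for 25 Mediator genes, coloured by module, with standard errors as bars and equality as a dashed line. Med6, Med12l and Med28 lie to the upper right, and Med31 and Med14 lie farther from 0 in females (-0.43 and 0.30) than in males (-0.05 and -0.05), a contrast that did not pass the interaction test.

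Med22 lies in the surfeit cluster, a run of tightly packed unrelated genes, so the values of its neighbours are set beside it. In the RefSeq table (GRCr8) the 3 nearest genes on one side were Surf6, Ensa-ps1 and Abo, and on the other Rpl7a and 2 small nucleolar RNA genes. Ensa-ps1 and the RNA genes had no probe set named for them alone. Med22 and Rpl7a, which encodes a protein of the large ribosomal subunit, start head to head on opposite strands with 225 bases between their start sites, and their start regions share 276 bases. The YY1 match in the Med22 region falls 2 to 8 bases after the start site of Rpl7a.

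Rpl7a moved the opposite way. On its brightest probe set it ranged over 10.67 to 10.86 (median 10.73) in HHR and 10.81 to 11.45 (median 10.99) in NHR, a difference of -0.32 (SE 0.08, limma adjusted p = 0.0065). All 13 probe sets named Rpl7a were lower in HHR, by differences of -0.35 to -0.28, and copies of this gene may share probes, so they are not independent. Without the 3 high-scoring NHR arrays, 8 of the 13 passed and the differences were -0.18 to -0.12.

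Surf6, a nucleolar protein gene, had 2 probe sets that disagreed. The brighter one differed by 0.13 (SE 0.05, limma adjusted p = 0.0473) and the other by 0.02 (SE 0.04, adjusted p = 0.81). Without the 3 high-scoring NHR arrays the brighter one did not pass (0.14, adjusted p = 0.0884). Abo, a blood group glycosyltransferase gene, gave -0.18 (SE 0.06, adjusted p = 0.0368) on its brighter probe set and -0.07 (adjusted p = 0.359) on the other. That call too was lost without those arrays (-0.15, adjusted p = 0.0828). Surf1, Surf2 and Surf4, further along the cluster and chosen after their values were seen, differed by 0.04, -0.04 and 0.04 and did not pass (adjusted p of 0.60, 0.535 and 0.554). No measured neighbour came near the 1.62 of Med22.

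**Figure D5:**
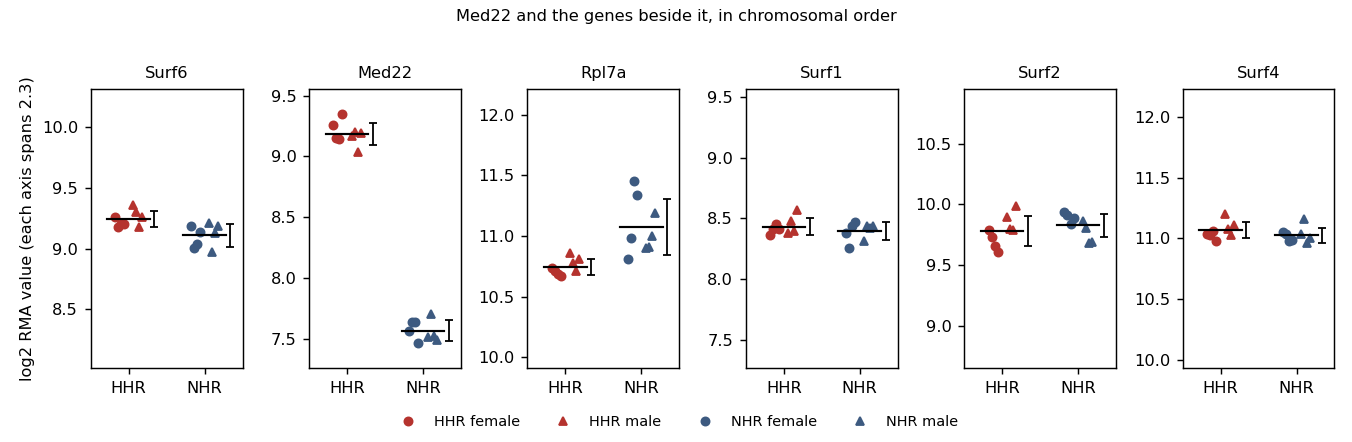
Log2 value on each array (vertical axes of equal span) for Med22 and 5 genes beside it in chromosomal order, HHR left of NHR, circles for females and triangles for males, with the strain mean as a line and the SD of 8 arrays as a bar. The strains separate by 1.62 in Med22, Rpl7a is lower in HHR by 0.32, and the strains overlap in all 5 of the other genes. Surf1, Surf2 and Surf4 lie further along the cluster and were chosen after their values were seen.

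Mediator works with the polymerase, the general factors, the elongation machinery and the cohesin ring that holds enhancers to promoters. Therefore 6 lists of those genes were counted on the same test. The shares to set beside all 6 lists are those of all named genes, 11.8% higher and 11.2% lower. Without the 3 high-scoring NHR arrays these shares were 7.15% higher and 8.48% lower. Of 9 measured RNA polymerase II subunits, 2 were higher, 1 was lower and 6 did not pass (median difference 0.05). The count was 1 higher and 0 lower without the 3 high-scoring NHR arrays. Polr2f, a small subunit shared by all 3 nuclear polymerases, ranged over 12.38 to 12.53 (median 12.45) in HHR and 12.06 to 12.34 (median 12.24) in NHR, without overlap. Its difference was 0.24 (SE 0.04, limma adjusted p = 0.00105). Polr2d, part of the polymerase stalk, was higher by 0.17 (adjusted p = 0.0378), a difference of 0.11 without the 3 high-scoring NHR arrays (adjusted p = 0.242).

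Of 16 general transcription factor genes, 4 were higher, 1 was lower and 11 did not pass (median 0.04), and without the 3 high-scoring NHR arrays 2 were higher and 0 lower. Gtf2a1, a subunit of TFIIA, differed by 0.24 (SE 0.04, limma adjusted p = 0.00139) with 7 of 8 HHR arrays above the highest NHR value. Tbp, the TATA-binding protein, differed by 0.23 (SE 0.05, adjusted p = 0.00349) with 5 of 8. Of 9 TBP-associated factors, the TFIID subunits, 4 were higher, 2 were lower and 3 did not pass (median 0.14), and without the 3 high-scoring NHR arrays 2 were higher and 1 lower (median 0.07). Taf2 ranged over 9.55 to 9.65 (median 9.58) in HHR and 8.94 to 9.45 (median 9.25) in NHR, without overlap, a difference of 0.37 (SE 0.07, adjusted p = 0.00129). Taf13 was higher by 0.31 (SE 0.06, adjusted p = 0.00179).

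Of 29 measured factors that pause and release the polymerase, 9 were lower, 1 was higher and 19 did not pass. The median difference was -0.09. Among all named genes 11.2% were lower and 11.8% higher. Ell, an elongation factor, ranged over 9.03 to 9.23 (median 9.12) in HHR and 9.21 to 9.45 (median 9.35) in NHR, a difference of -0.22 (SE 0.05, limma adjusted p = 0.00253). The gene that was higher was Tcea1, which rescues stalled polymerase, at 0.21 (SE 0.04, adjusted p = 0.00273). Without the 3 high-scoring NHR arrays 9 were lower and 1 higher (median -0.12), but only 6 of those 9 were among the 9 lower with all arrays.

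Of 8 cohesin and loading genes 2 were lower, 0 higher and 6 did not pass (median -0.07), and without the 3 high-scoring NHR arrays 1 was lower. These were Smc1a, a cohesin arm, at -0.21 (SE 0.05, limma adjusted p = 0.00465) and Ctcf, the insulator protein, at -0.16 (SE 0.04, adjusted p = 0.0175), which did not pass without those arrays (-0.14, adjusted p = 0.0586). Of 19 activators known to bind Mediator 2 were higher, 2 lower and 15 did not pass (median -0.02), and without the 3 high-scoring NHR arrays 0 were higher and 1 lower. The orphan nuclear receptors Esrrg and Esrra, which drive genes of energy metabolism, were lower, at -0.20 (SE 0.04, adjusted p = 0.00414) and -0.20 (SE 0.05, adjusted p = 0.0117). The 2 higher genes were Ppargc1a at 0.24 (SE 0.06, adjusted p = 0.0119) and Atf6 at 0.14 (SE 0.05, adjusted p = 0.0396). Esrrg ranged over 9.71 to 9.85 (median 9.79) in HHR and 9.86 to 10.17 (median 9.96) in NHR, with all 8 HHR arrays below every NHR array. Esrrg passed without the 3 high-scoring NHR arrays at -0.17 (adjusted p = 0.0249) and Esrra did not at -0.14 (adjusted p = 0.0862).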

How the data were processed

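Heart RNA of 16 pups was measured on Affymetrix Rat Gene ST arrays, 1 animal per array without pooling, per the labels. The authors deposited log2 values made with RMA, which corrects background, normalizes between arrays and summarises probe sets, and limma is also named, per the submitters' processing notes. Versions, probe annotation and genome build are not given in the sources used here. Of the 27342 probe sets, 15097 had 1 gene symbol in the platform annotation, 323 had several and 11922 had none. All 26 members matched RefSeq (GRCr8) by gene ID, and the filter on dim probe sets kept all 26.

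A mean per group was fitted with limma 3.58.1 in R 4.3.3 to all arrays and probe sets, with empirical Bayes moderation and Benjamini-Hochberg adjustment at a threshold of 0.05. There were 5 comparisons: strain, strain in females, strain in males, their difference, and sex. Each gene outside the members is given by its brightest probe set. The members and lists were chosen with earlier results of these data known. Values by strain are given for members past the threshold (at most 12) and for Med1, Med13, Med14, Med30, Cdk8, Cdk19 and Ccnc. Further members near the threshold were added after their values were seen. From each pathway list the 2 genes with the smallest adjusted p are named, and for a member that differed at least 1.5-fold the 3 nearest genes on each side. Of the activators, the 2 higher genes were also named, after their values were seen. The number of arrays limits the precision. Litter and processing batch are not given in the sources used here, and p-values measure only the spread between these animals. Sequence differences between the strains under the probes were not tested.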

Additional observations from a re-analysis of the deposited data

Results flagged for a closer look

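In 3 of 104 group readings of a member (26 genes in 4 groups of 4 arrays), 1 array lay far from the other 3 by Dixon's gap test, which chance alone flags in about 1 of 20 groups. Med22 read 7.70 in NHR male 2, against 7.49 to 7.52 in the other NHR males. Med21 read 8.67 in NHR male 1, against 9.12 to 9.17 in the other NHR males. Ccnc read 8.84 in HHR female 1, against 8.66 to 8.68 in the other HHR females.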

How the results depend on the processing

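Med22 passed under all 28 other settings of the fit, at 1.60 to 1.66, and at a threshold of 0.01 or with a minimum of 1.5-fold, and Med6 (0.26 to 0.34) and Med12l (0.25 to 0.29) passed under the same 28. Of these, leaving out the 4 low-scoring NHR arrays was chosen after seeing the data. It gave 8 higher and 2 lower, with 5 in males and 7 in females, Cdk8 at -0.01 and Ccnc at -0.02. The 3 high-scoring NHR arrays, too, stand apart by scores computed from these same values. The count of members higher in HHR was 6, and it was 3 without NHR female 3, NHR female 4 and NHR male 4, 3 at a threshold of 0.01 and 1 with a minimum of 1.5-fold. It was 8 with the filter on dim probe sets, with only probe sets of 1 gene symbol or after median centring. After cyclic loess, or with trended and robust moderation, it was 7. It ran from 4 to 7 when each array was left out in turn, and it was 4 without HHR female 2, NHR female 3 or NHR male 3. The count lower was 2, and it was 1 after quantile normalization, median centring or array weights or without sex in the model, and 0 without those 3 NHR arrays, at 0.01 or with 1.5-fold. It ran from 1 to 3 with 1 array left out, and was 1 without HHR female 2, HHR female 4, HHR male 2, HHR male 4, NHR female 3, NHR female 4 or NHR male 2. In males the count of 3 became 1 in a fit of male arrays only, at 0.01 or with 1.5-fold, and ran from 2 to 3 with 1 array left out. In females the count of 5 became 2 without the 3 NHR arrays, 2 at 0.01 and 1 with 1.5-fold, and ran from 3 to 6 with 1 array left out, with 3 without HHR female 1 or NHR female 4. The count in females was 7 with the filter on dim probe sets, and 6 with only probe sets of 1 gene symbol or after quantile normalization. It was 4 with trended and robust moderation or in a fit of female arrays only. Counts for the interaction and for sex stayed at 0 under every setting run. The Med13 difference of 0.01 was -0.02 after quantile normalization, -0.02 after cyclic loess, -0.01 with array weights and -0.01 without HHR female 4, and ran from -0.01 to 0.03 with 1 array left out. The labels do not say what the replicate numbers mark. Of 24 same-numbered pairs 11 correlated above 0.1 in their deviations from the group mean. The pairs of NHR females and males 1 to 4 correlated at 0.367, 0.191, -0.106 and 0.302. Of 16 arrays 9 correlated best with their own number, a hint from the data and not the design. With the replicate number as a block, 7 members were higher and 3 lower, Med30 being added at -0.13 (adjusted p = 0.0331) and Med11 at 0.20 (adjusted p = 0.0327), and 3 passed in males and 5 in females. After median centring 56.3% of the calls over all probe sets were higher in HHR, against 46.6% with the values as deposited. The causes of these changes were not tested, and leaving out arrays also lowers the number of samples.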
